A study of Mus musculus with 12 samples.

Results

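The last stretch of mouse chromosome 11, from 120 Mb (build mm10) to the final listed region, carries Tex19.1, the gene disrupted in these cells, and its paralog Tex19.2. It was profiled for trimethylated lysine 9 of histone H3 (H3K9me3) by chromatin immunoprecipitation and sequencing (ChIP-seq). Regions were taken by position alone, as those on chromosome 11 that start at 120000000 or later, which gave 49 of the 68291 regions in the authors' deposited table. The remaining 3169 regions of chromosome 11 served as the comparison. The libraries came from mouse embryonic stem cells derived from E14Tg2a, of 129/Ola background and at passages 12 to 20, and were either Tex19.1+/- or Tex19.1-/-. Each genotype has 3 libraries of immunoprecipitated DNA and 3 of input DNA. In 6 of the 12 libraries the genotype field contradicts the title, and the titles were followed. How the allele was made, and whether the 3 libraries of a genotype came from separate cultures or clones, is not given in the sources used here.

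H3K9me3 is a mark of silent chromatin, laid down by the SETDB1 and SUV39H enzymes and bound by HP1 proteins. In embryonic stem cells it covers retrotransposons, imprinted loci and clusters of repeated genes. TEX19.1 is a mammal-specific protein of germ cells, placenta and pluripotent cells that is needed for spermatogenesis and restrains retrotransposons, and Tex19.1 is among the germline genes whose promoters are controlled by DNA methylation. Tex19.2 is the rodent duplicate of the gene and is expressed in the testis.

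The authors' deposited table compares the genotypes once per region and has 0 columns of single libraries, so values per library were not analysed here. For each region it gives the log2 fold change between genotypes and the signal as a mean log2 CPM. It also gives a p-value with its adjustment over all regions (FDR). CPM is a read count scaled to a total per library, and which reads that total counts is not stated. A region was called at an FDR below 0.05. The direction of the comparison is not stated, so a positive value may be higher in either genotype. Errors (SE) were derived from the p-values, which treats the authors' test as correct. Where a region's p was too large for that, the error typical of its signal was used.

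The 2 Tex19 genes lie head to head on opposite strands, 27466 bp apart. Tex19.1 (chromosome 11, 121146143 to 121148314, plus strand) overlapped no region, and Tex19.2 (121116215 to 121118677, minus strand) held 1. The 250 bases before the start of each gene are shown, from RefSeq on GRCm38.p6 and 5′ to 3′ on the gene's strand, because the paralogs differ both in whether a region was listed at the gene and in their density of CpG, the dinucleotide that DNA methylation targets. Capitals mark each CG.
Tex19.1, chr11:121145893-121146142: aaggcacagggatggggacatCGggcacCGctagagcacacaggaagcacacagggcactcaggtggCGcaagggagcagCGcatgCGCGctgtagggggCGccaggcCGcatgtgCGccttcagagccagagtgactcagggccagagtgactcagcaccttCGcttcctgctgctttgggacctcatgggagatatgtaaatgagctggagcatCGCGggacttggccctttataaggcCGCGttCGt
Tex19.2, chr11:121118678-121118927: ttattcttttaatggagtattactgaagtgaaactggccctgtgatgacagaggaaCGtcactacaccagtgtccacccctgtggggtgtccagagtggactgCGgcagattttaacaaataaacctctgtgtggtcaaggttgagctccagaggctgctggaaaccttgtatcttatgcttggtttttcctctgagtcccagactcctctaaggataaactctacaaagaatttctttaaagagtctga
The Tex19.1 stretch holds 15 CG and 61.6% G or C. The Tex19.2 stretch holds 2 CG and 44.4% G or C. Of 32536 distinct RefSeq promoter stretches of this length, the median has 6 CG, 27.5% have 15 or more and 28.8% have 2 or fewer. The nearest region ended 27876 bp from the Tex19.1 stretch and 661 bp from the Tex19.2 stretch, so neither stretch was itself covered.

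The region in Tex19.2 (121116874 to 121118017) covered the middle of the gene body and ended 660 bp short of the start of the gene. It was of ordinary strength, at 12.1 CPM in the authors' deposited table, against a median of 15.8 CPM over the 49 regions. In the authors' deposited table its log2 fold change was 0.28 (p = 0.387, FDR 1), with an SE of 0.30 and a 95% interval of -0.31 to 0.86. That interval holds both 0 and the median of the rest of chromosome 11 (0.28). Among regions within 0.25 log2 CPM of it anywhere in the genome, the smallest called change was 1.24 in the authors' deposited table, a value that rests on 2 called regions.

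Tex19.1 itself lay in a gap of 187 kb without regions (121118017 to 121304882). The gap also holds the protein-coding genes Uts2r (the urotensin receptor), Ogfod3, Hexdc, Cybc1 and Narf. Such gaps are not rare on this chromosome, where it ranked 122 by length among 3217. The table therefore has no value for H3K9me3 at Tex19.1 in either genotype, and the targeted gene cannot be used to check the genotype labels.

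The region in Tex19.2 borders this gap on one side, and the next regions outward lie at neighbouring genes. Before Tex19.2, Sectm1a, which codes for a secreted and transmembrane protein of the immune system, held 2 strong regions. In the authors' deposited table the first (121067422 to 121070450) had 70.4 CPM and a log2 fold change of 0.17 (SE 0.11, p = 0.138). The second (121074585 to 121077513) had 55.5 CPM and 0.24 in the authors' deposited table (SE 0.13, p = 0.0586). Neither was called.

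Behind the gap, 4 regions at the end of Foxk2, a forkhead transcription factor, and before Wdr45b, an autophagy gene, held 254 CPM, or 17.9% of the signal of the 49. All 4 were positive, from 0.20 to 0.48, and none was called. The strongest, between the genes (121312635 to 121322561), is the broadest of the 49 at 9926 bp and had 138 CPM and, in the authors' deposited table, a log2 fold change of 0.21 (SE 0.08, p = 0.00835, FDR 0.586). The region beside it in Foxk2 (121306624 to 121311403) had 97.3 CPM and 0.20 in the authors' deposited table (SE 0.09, p = 0.0285, FDR 0.913). These 2 unadjusted p-values are below 0.05, and both intervals, 0.05 to 0.37 and 0.02 to 0.39, also hold the median of the rest of the chromosome. The next region, in Tbcd, a tubulin-folding cofactor (121614092 to 121615228), was weaker at 11.01 CPM, with 0.59 in the authors' deposited table (SE 0.30, p = 0.0521).

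**Figure D1:**
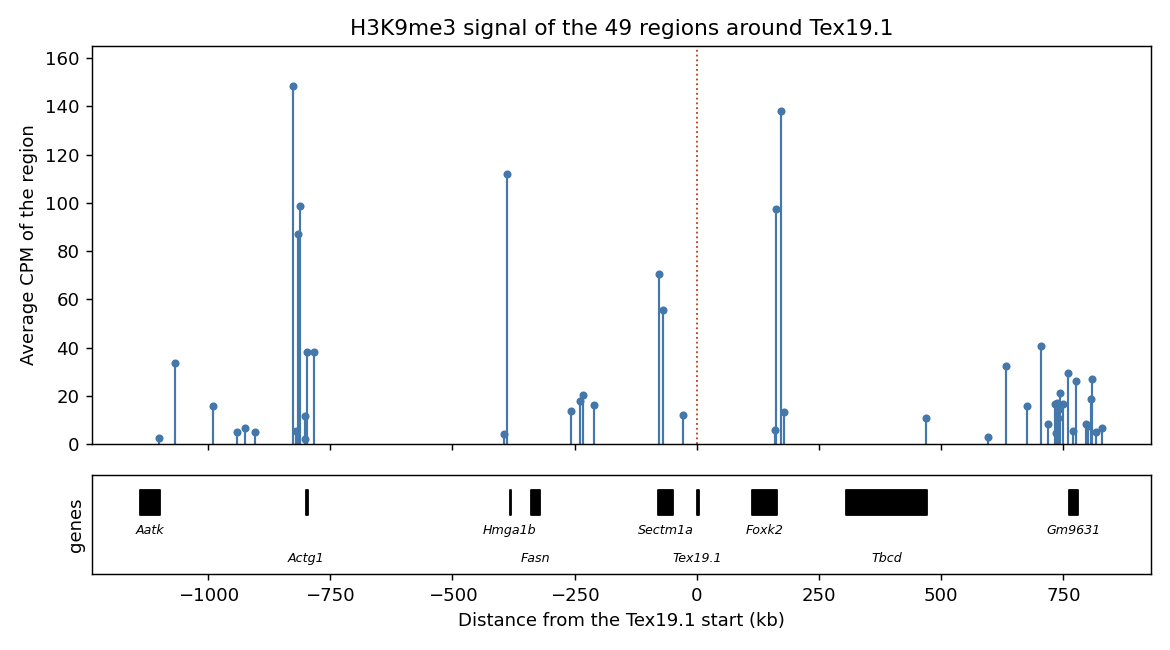
Average CPM of each of the 49 regions (vertical lines with points) against its distance in kb from the start of Tex19.1 (dotted line), with selected genes drawn below. The strongest regions, at 148 CPM between Bahcc1 and Actg1 and 138 CPM behind Foxk2, lie on either side of Tex19.1. Neither borders the gap that holds the gene.

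Much of the signal around the Tex19 genes was in a few broad regions, and strong regions held much of it elsewhere on chromosome 11 too. The 49 regions summed to 1421 CPM, and the 10 strongest held 62.3% of it. At a log2 CPM of 5 or more, 13 of the 49 regions held 989 of the 1421 CPM. On the rest of the chromosome, the 388 of 3169 regions at that level held 26777 of 53417 CPM. The 49 regions covered 45.1 kb per Mb and held 719 CPM per Mb, against 31.9 kb and 457 CPM on the rest of chromosome 11. Regions were no denser (24.8 and 27.1 per Mb). Windows of 1 Mb with at least 8 regions on the chromosome held from 63.9 to 1838 CPM. The 2 windows of the stretch, at 682 and 739 CPM, lie within this range. The median region was 1274 bp wide here and 715 bp elsewhere on the chromosome. These differences were not tested, since neighbouring regions are not replicates. The stretch is also rich in genes, with 33.9 protein-coding genes per Mb against 13.2. Of its 67 protein-coding genes, 16 (23.9%) had a region within 5 kb, against 30.0% of 1542 on the rest of the chromosome. The longest gap, of 389 kb (120363285 to 120751829), holds 30 protein-coding genes from Faap100 to Cbr2, among them the deacetylase gene Sirt7 and the protein disulfide isomerase gene P4hb. Of the 49 regions, 17 overlapped a protein-coding gene, 2 another gene and 30 none.

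The largest block of signal lay between Bahcc1 and Actg1, where 5 regions held 341 CPM (24.0% of the total). The strongest (120315990 to 120323713) had 148 CPM and, in the authors' deposited table, a log2 fold change of 0.13 (SE 0.08, p = 0.0823). The others above 80 CPM had 0.13 (120331940 to 120337231, SE 0.10) and 0.004 (120328049 to 120330857, SE 0.10) there. A weak region of the block (120325965 to 120326636, 5.45 CPM) had the lowest value of the 49, -0.50 in the authors' deposited table (SE 0.46, p = 0.28). The region from 120328049 has an interval of -0.20 to 0.20, below the median of the rest of the chromosome. This was so for 1 other of the 49 (121849786 to 121851906), and no interval lay above that median. The interval of the region from 120328049 rests on the error typical of its signal, not on its own p. Some of 49 such intervals can miss a given value, and no share outside the 49 is given. The count is therefore not a result about the locus.

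RefSeq promoter windows, which reach from 250 bases before a start to just past it, overlapped a region at 3 of the 68 genes with such a window. They belong to Actg1, which codes for cytoplasmic gamma actin, to the noncoding gene 0610009L18Rik on its other side, and to Fscn2, an actin-bundling fascin of the retina. The windows of Actg1 and 0610009L18Rik met the same region. Genes of the stretch without a window, such as Sectm1a, were not assessed, and no share for the rest of the chromosome is given. The region over Actg1 (120346385 to 120348504) had 38.2 CPM and, in the authors' deposited table, a log2 fold change of -0.02 (SE 0.16, FDR 1). It reached 59 bp into the Actg1 window, most of them inside the gene, which ends at 120348495. Of the 250 upstream bases it touched only the few next to the start. Those 250 bases have 43 CG, a number that 0.719% of promoter stretches reach. Actg1 has processed copies elsewhere in the genome, so the placement of its reads may be uncertain, which was not examined. The region in Fscn2 (120360859 to 120363285) covered the whole window and had 38.0 CPM and 0.04 in the authors' deposited table (SE 0.16, FDR 1). That window (120361284 to 120361583) lies inside the gene, which spans 120360165 to 120368173. The bases before the gene's outer start were not covered.

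The smallest p of the 49 belonged to a region 959 bp from Hmga1b, a gene of the HMGA1 chromatin protein type (120754819 to 120761835). It had 112 CPM and, in the authors' deposited table, a log2 fold change of 0.29, a 1.22-fold difference (SE 0.09, p = 0.00135, FDR 0.23). The smallest called change among regions of like signal was 0.33. A weak region beside it (120751829 to 120752276, 4.35 CPM) had the highest value of the 49, 1.01 in the authors' deposited table, with an interval of -0.09 to 2.11. In Ccdc57 and just behind it, 4 regions of 13.7 to 20.6 CPM had values from -0.21 to 0.09, the lowest of them (120935832 to 120937106) with p = 0.41 in the authors' deposited table. A region 1407 bp from the noncoding gene Gm39486 (120155026 to 120156183, 15.7 CPM) was also among the lowest, at -0.20 in the authors' deposited table (SE 0.26, p = 0.454).

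The last part of the chromosome, behind Metrnl, held 21 regions of 3.10 to 40.5 CPM, of which 17 were positive and 4 negative, from -0.21 to 0.77. Its protein-coding genes include Ptchd3 and the predicted gene Gm9631. Regions in Gm9631 had 0.51 (121915609 to 121916200, SE 0.51) and 0.26 (121921210 to 121923149, SE 0.19) in the authors' deposited table. The highest value here was 0.77, at a region 5682 bp from the noncoding gene Gm12586 (121864253 to 121865124, 8.31 CPM), with an SE of 0.38 and p = 0.0415 in the authors' deposited table. A stronger region on the other side of that gene (121849786 to 121851906, 40.5 CPM) had -0.16 in the authors' deposited table, with an SE of 0.15, an interval of -0.47 to 0.14 and p = 0.288. A region at the pseudogene LOC115487748 (121903995 to 121905816) had 0.41 in the authors' deposited table (SE 0.18, p = 0.01945, FDR 0.81).

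**Figure D2:**
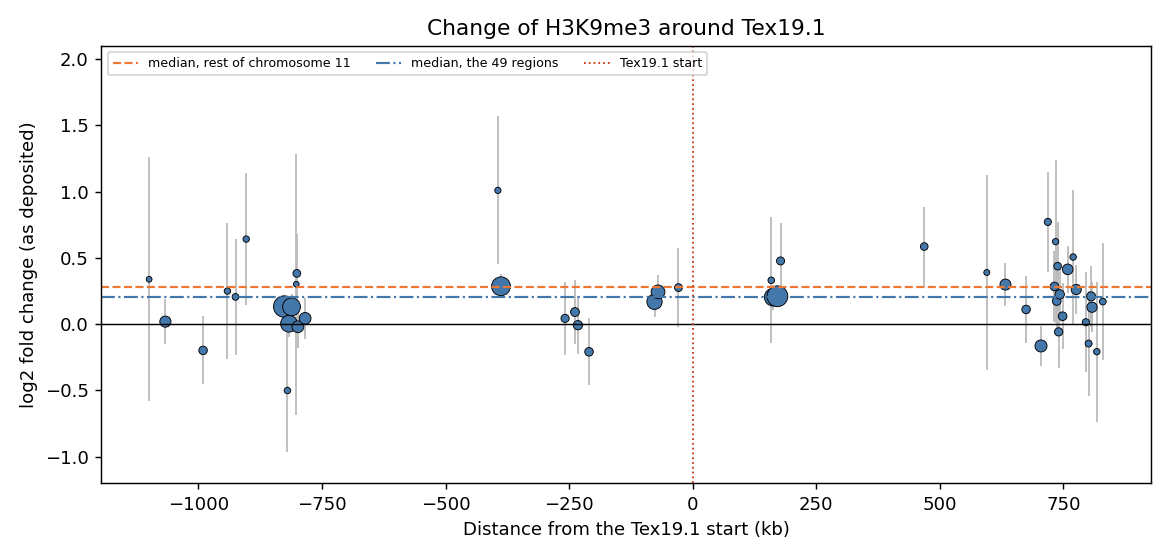
Log2 fold change of each of the 49 regions as deposited (points, area by CPM) against distance in kb from the start of Tex19.1, with bars of 1 derived SE; lines mark 0 and the medians of the 49 regions (0.21) and of the rest of chromosome 11 (0.28). Most points lie above 0 on both sides of Tex19.1, and the widest bars belong to weak regions.

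None of the 49 regions was called in the authors' deposited table. Over all regions 192 were called, or 0.281%, and on the rest of chromosome 11 35 of 3169, or 1.1%, of which 34 were positive. At these shares a count of 0 in 49 is not a result about the locus. An unadjusted p below 0.05 was found in 5 of the 49 (10.2%), all positive, against 4.74% of all regions and 15.7% of the rest of chromosome 11. Positive values alone made up 2.7% and 15.4%. At 9 of the 49 no region of like signal was called anywhere in the genome, and none of the other 40 reached the smallest called change of its signal level. The calls nearest to Tex19.1 lay 4.42 Mb before it, in adjoining regions 14022 bp from Gm11735 and 15110 bp from St6galnac2. They had 0.42 (116717670 to 116723782, FDR 0.0203) and 0.53 (116710892 to 116717280, FDR 0.0013) in the authors' deposited table.

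The changes around Tex19.1 leaned to the positive side as those of the whole chromosome did. Of the 49 values 40 were positive (81.6%, 95% Wilson interval 68.6 to 90.0), against 83.7% (82.4 to 85.0) on the rest of chromosome 11 and 49.2% of all regions. The median was 0.21, a ratio of 1.15, with quartiles of 0.04 and 0.33, against 0.28 (ratio 1.21) on the rest of the chromosome. The 95% order-statistic interval of the median, 0.128 to 0.276, ends just below the 0.277 of the rest of the chromosome. It overlaps the interval of that second median, 0.267 to 0.291. All such intervals treat neighbouring regions as independent. The lower median is not particular to the stretch. The 33 regions of the 2 Mb just before it had a median of 0.22, with 72.7% positive. In the last stretch of equal length on the other autosomes, chromosome 16 left out, the median was -0.07 over 913 regions, with 40.4% positive.

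Signal has to be set beside this difference, because weak regions had larger values on chromosome 11. Split by signal, the 14 regions below a log2 CPM of 3 had a median of 0.32, against 0.34 on the rest of the chromosome. From 3 to 4 the medians were 0.28 (11 regions) and 0.30, and from 4 to 5 they were 0.17 (11 regions) and 0.25. At 5 or more they were 0.13 (13 regions) and 0.24. Relative to regions of like signal on the rest of the chromosome, 32 of the 49 lay below, with a median difference of -0.072 (interval -0.13 to -0.01). The difference was not tested over libraries.

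**Figure D3:**
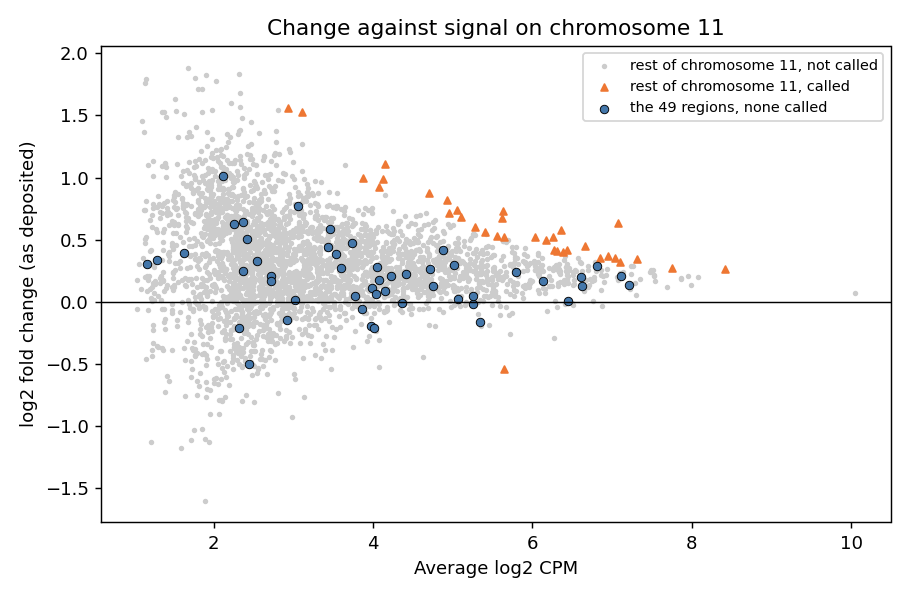
Log2 fold change as deposited against average log2 CPM for the 49 regions (outlined circles) and the rest of chromosome 11 (grey points, or triangles where called). The 13 regions at a log2 CPM of 5 or more run from -0.16 to 0.30.

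The median was lower before Tex19.1 than after it, a difference that was not tested. The 23 regions before the gene had a median of 0.13 and 18 positive values, and the 26 after it had 0.22 and 22. The order-statistic intervals of these medians, 0.02 to 0.28 and 0.13 to 0.39, overlap. In windows of 1 Mb, the window that starts at 120 Mb had a median of 0.11 over 20 regions, lower than all but 5 of 107 windows on the chromosome. The window behind it, which holds both Tex19 genes, had 0.23 over 29 regions, with 27 windows below it. The window that ends at 120 Mb had 0.06, over 8 regions. The rule that starts the stretch at 120 Mb fell between a region 2851 bp from Chmp6 (119922403 to 119922903) with 0.14 and the first of the 49, in Aatk (120046388 to 120046506), with 0.34, both weak regions in the authors' deposited table.

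**Figure D4:**
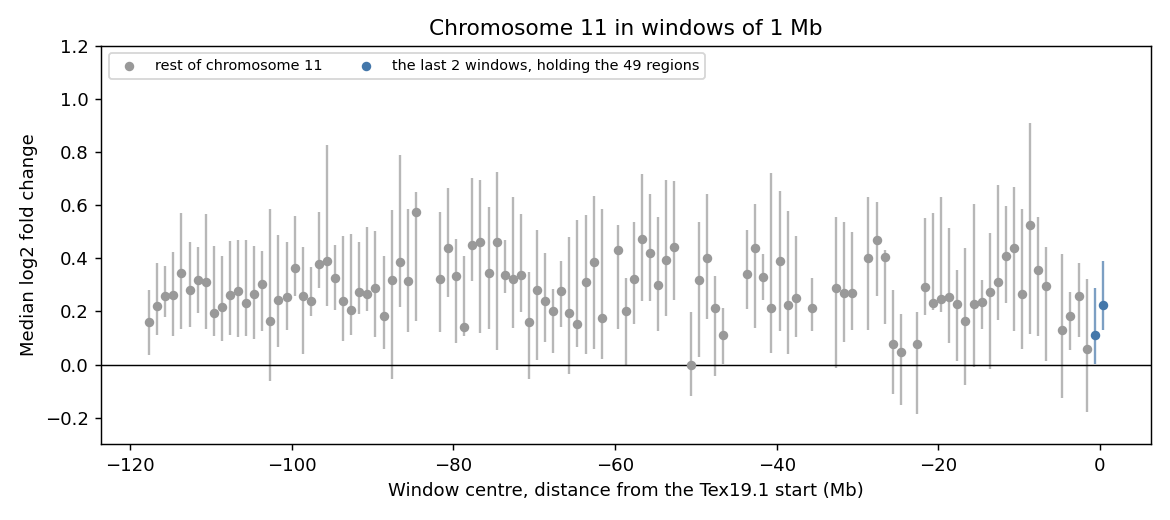
Median log2 fold change (points) with quartiles (lines) of each 1 Mb window of chromosome 11 with at least 8 regions, against its distance in Mb from the start of Tex19.1. The last 2 windows, at 0.11 and 0.23, lie within the range of the other windows, and 106 of 107 medians are above 0.

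Genes that act with H3K9me3, or that resemble Tex19.1 in their control, showed no call elsewhere in the genome either. Of 20 genes for H3K9 methylation, its readers and erasers, and partners of TEX19.1, 6 had a region in the body or within 5 kb. Their 11 regions held 0 calls and 1 unadjusted p below 0.05, with a median of 0.12 (7 positive). That region lies in Pphln1, which codes for periphilin of the HUSH silencing complex (chromosome 15, 93441911 to 93442538), and had 1.48 at 5.08 CPM in the authors' deposited table (SE 0.53, FDR 0.481). Of 20 germline genes that DNA methylation silences or that act in meiosis and retrotransposon defence, 15 had a region. By the same rule 30.0% of 1542 protein-coding genes on the rest of chromosome 11 had one. The share over all genes was not computed. The 34 regions of the germline genes also held 0 calls, and 2 had an unadjusted p below 0.05. Their median was -0.02 (15 positive), against -0.01 over all regions. Neither count of 0 stands apart from the 0.281% called over all regions. The 2 lie in Taf7l, a TFIID subunit paralog of germ cells (chromosome X, 134475521 to 134476526), with -0.99 in the authors' deposited table (SE 0.39, p = 0.00989), and in Sycp1, a protein of the synaptonemal complex (chromosome 3, 102854867 to 102855864), with -0.60 (SE 0.28, p = 0.0302).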

How the data were processed

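H3K9me3 ChIP-seq was analysed from the authors' deposited table of 1 comparison. Per the file headers each region has a log fold change, a mean log CPM, a p-value and an FDR. The headers name no base. The deposited logarithms were read as log2, on which the CPM of all regions sum to 1081650. A sum of this size points to CPM scaled to the reads within the listed regions, not to all reads of a library. Which total the authors used is not stated. The build mm10 and the tools bedtools 2.25.0, Bowtie2 2.2.6, edgeR and HOMER 4.8 are listed per the submitters' processing notes. Which libraries entered the comparison, how regions were defined and the total reads per library were details not given in the sources used here. The depth of each library is therefore unknown.

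Python 3.11.15, pandas 2.3.3 and scipy 1.17.1 were used. Adjusting the authors' p-values again by Benjamini-Hochberg gave the deposited FDR to within 3.2e-05. An SE is the size of the log2 fold change over the normal deviate that matches the 2-sided p, if this deviate reached 1 (22 of the 49 regions). Elsewhere it is the median of such errors within 0.25 log2 CPM. The code of this derivation was checked on simulated data whose p-values came from the same normal model. That does not test it on the authors' p-values. Genes and promoter stretches came from RefSeq tables of GRCm38.p6, the assembly that mm10 names, without exons or introns. In 158 of 158 overlapping promoter windows of opposite strand on chromosome 11 the sequences were reverse complements, as the strand column states.

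The named regions were the 5 nearest on each side of Tex19.1, those within 5 kb of a Tex19 gene, all called ones, the 10 strongest and the 5 highest and 5 lowest at a log2 CPM of 3 or more. Some of these are given only within a range, and other regions (in Aatk, Fscn2 and Gm9631, the weak ones near Hmga1b and before Actg1, and that near Chmp6) and the grouping by neighbouring genes were picked once their values were known. The locus, the 2 gene lists and the alternatives were chosen with earlier results of these data known. No test over libraries could be made, so the fold changes are described.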

Additional observations from a re-analysis of the deposited data

How the results depend on the processing

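The count of called regions around Tex19.1 was 0 with the deposited FDR and with every alternative run: an FDR below 0.01, Holm adjustment, adjustment without regions below a log2 CPM of 2 or without chromosomes X and Y, a start 1 Mb earlier or later, and, added after seeing the data, a normal approximation within chromosome 11 after its median was subtracted. With 0 called at the deposited FDR, the FDR below 0.01, Holm adjustment and the later start could only return 0. Before adjustment 5 regions had p below 0.05. The median log2 fold change of 0.21 became 0.17 without regions below a log2 CPM of 3, 0.17 without those shorter than 1000 bp, 0.16 as a mean weighted by CPM, 0.20 and 0.23 with a start 1 Mb earlier and later, and 0.26 relative to regions of like signal outside chromosomes 11 and 16. In each of these it stayed below the value of the rest of chromosome 11, by 0.05 to 0.10. The 33 regions of the 2 Mb just before the stretch were also lower, with a mean weighted by CPM of 0.16, against 0.26 on the rest. Relative to regions of like signal on the rest of chromosome 11, an alternative added after seeing the data, it was -0.072; this takes the shift of the chromosome as 0 and so turns the sign by construction. No paired analysis was possible because the table has no columns of single libraries, and leaving out replicates was not run for the same reason. The errors inherit the authors' test, and are widest at weak regions.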
